A study of Mus musculus with 15 samples.

Results

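The genes followed here are 9 members of the MHC class II route of antigen presentation, chosen by symbol from a table of 24421 mouse genes: Cd74, H2-Aa, H2-Ab1, H2-Eb1, H2-DMa, H2-DMb1, Ciita, Cd86 and Cd80. Every member was in the table and passed the filter on low counts, as 9 of 16752 genes tested. Their RNA was counted in 15 kidney libraries of wild-type mice taken at day 14. In 6 mice the ureter had been obstructed and the diet held a silicon-based agent (UUO_Si), in 6 the ureter had been obstructed on normal diet (UUO), and 3 had a sham operation on normal diet (sham). Unilateral ureteral obstruction ties off the outflow of a single kidney, which injures tubules, draws leukocytes into the interstitium and leads to fibrosis. The stated aim of the series was to see how the oral agent affects kidney transcripts. No sham mice received the agent, so UUO_Si differs from sham in both operation and diet. Strain, sex and age of the mice are not stated in the labels, and nothing beyond group and replicate number describes them, so the p values below measure the spread between these samples.

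MHC class II molecules carry peptides from ingested proteins to the cell surface, where CD4 T cells read them. Each molecule pairs an alpha and a beta chain, H2-Aa with H2-Ab1 in the I-A molecule, while H2-Eb1 is the beta chain of I-E. Cd74, the invariant chain, fills the peptide groove until it is cut away, after which the H2-DM dimer (H2-DMa and H2-DMb1) exchanges its last fragment for a peptide. Ciita is the coactivator on which transcription of these genes depends. Cd80 and Cd86 are surface ligands of the T cell receptors Cd28 and Ctla4 and supply the costimulatory signal. In kidney, macrophages, dendritic cells and B cells are the usual carriers of class II, and tubular and endothelial cells can make it under interferon gamma.

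Ciita does not bind DNA itself. It is held at class II promoters by the RFX complex on the X box and by NF-Y on the Y box, which are set a fixed distance apart. The 120 bases before the RefSeq gene start show this arrangement for the members in which both boxes were found, an alpha chain, a beta chain and an H2-DM chain. RefSeq sequences of GRCm38.p6 are described here for 5 of the 9 members. Capitals mark the X-box letters CTNGNAACT and the Y-box letters TGATTGG. Both letter strings were read off these very windows, and both strands were searched.

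H2-Aa, chr17:34287824-34287943, minus strand: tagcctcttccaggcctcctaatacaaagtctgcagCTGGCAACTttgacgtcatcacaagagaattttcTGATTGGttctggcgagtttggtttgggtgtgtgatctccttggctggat
H2-Eb1, chr17:34305747-34305866, plus strand: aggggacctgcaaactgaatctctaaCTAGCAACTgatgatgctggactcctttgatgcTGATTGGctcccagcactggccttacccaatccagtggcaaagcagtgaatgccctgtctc
H2-DMb1, chr17:34153071-34153190, plus strand: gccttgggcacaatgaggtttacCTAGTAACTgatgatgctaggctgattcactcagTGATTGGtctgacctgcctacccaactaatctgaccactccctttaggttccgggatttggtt

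The X-box letters began 84 bases before the RefSeq start of H2-Aa, 94 before that of H2-Eb1 and 97 before that of H2-DMb1. GENCODE places the start of H2-DMb1 further upstream, at 34153072, so nearly the whole H2-DMb1 window lies inside the gene in that annotation. The Y-box letters began 34 bases further on in H2-Aa and H2-DMb1 and 33 bases further on in H2-Eb1. The search covered longer windows than those printed, from 250 bases before to 50 bases after the RefSeq start. Among 32851 such windows, 4.10% held the X-box letters and 7.82% the Y-box letters. Both together on a single strand, 15 to 45 bases apart from start to start, were found in 5 windows, those of the 3 members and of BC051142 and 1700048F04Rik. As the letters were read off the windows of the 3 members, their match was fixed in advance and the count is no test of it. The windows of H2-DMa and Cd80 held neither letter string. No RefSeq window was available for H2-Ab1, Ciita and Cd86. Cd74 is not shown, and it was not among the genes whose windows held both letter strings.

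On GRCm38 (GENCODE M21), the H2 members lie together on chromosome 17: H2-DMa at 34119541-34139101, H2-DMb1 at 34153072-34160230, H2-Ab1 at 34257689-34269419 and H2-Eb1 at 34305867-34316674 on the plus strand, and H2-Aa at 34282744-34287823 on the minus strand. Ciita (10480059-10528418, plus), Cd86 (36603869-36666081, minus) and Cd80 (38455561-38496335, plus) lie on chromosome 16. H2-DMa overlaps Brd2, Ciita overlaps Dexi and H2-Eb1 overlaps Gm20513 on the opposite strand, and as the strand setting of the counting was not given, reads of such pairs may have been mixed. H2-DMb1 also has a close copy, H2-DMb2, so the split of reads between these neighbours is uncertain.

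Libraries held 7.75 to 11.5 counts in UUO_Si, 11.2 to 15.42 in UUO and 5.53 to 8.31 in sham, in units of 1000000 counts. The tissue check held: summed levels of 10 proximal tubule markers were 823 to 2304 CPM in UUO_Si, 1042 to 1964 CPM in UUO and 15916 to 19128 CPM in sham (CPM is counts per 1000000 counts of the scaled library). In 4 libraries, UUO_Si replicate 6, UUO replicates 5 and 6 and sham replicate 3, 828 to 1281 of 1456 olfactory and vomeronasal receptor genes had counts, against at most 166 in each of the others. These are called receptor-gene libraries below, and where they changed a call or a count in UUO against sham the value without them is given as well. The code series in the sample names (RM4 and RM7 in UUO_Si, RM3 and RM6 in UUO, RM1 in sham) each belong to a single group, so series and group cannot be told apart.

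Transcripts of the class II route rose in obstructed kidneys. On normal diet, 8 of the 9 members rose in UUO against sham, by 3.29-fold for Cd86 up to 11.97-fold for H2-Aa (edgeR's quasi-likelihood test, Benjamini-Hochberg adjusted p of 4.08e-06 or lower for each of the 8). The exception was Cd80, which had a log2 fold change of 1.25 ± 0.77 (SE) and missed the threshold (adjusted p = 0.184). Of all 16752 genes, 53.9% were called in this comparison, 27.5% higher and 26.4% lower. The median log2 fold change of the members was 2.78, against -0.04 for all genes tested. Levels of the 8 members did not overlap between UUO and sham libraries, which was so for 24.6% of all genes in the higher direction. In whole kidney, more cells that carry a transcript and more transcript per cell cannot be told apart.

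**Figure D1:**
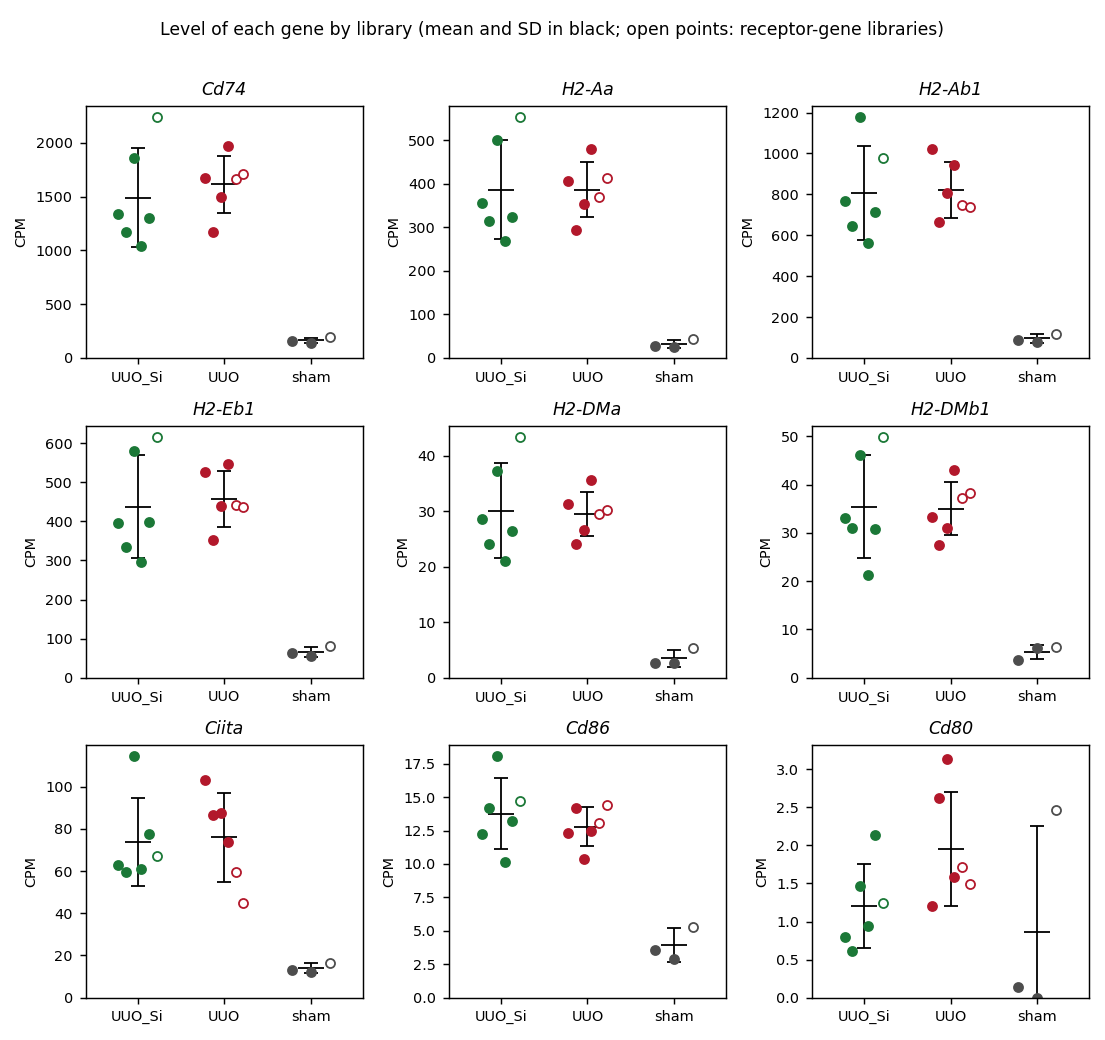
Level of the 9 class II route genes in CPM (linear axes from 0) in each library of UUO_Si (n = 6), UUO (n = 6) and sham (n = 3), with mean and SD in black and receptor-gene libraries as open points. Sham libraries lie below every obstructed library for 8 genes, while for Cd80 sham replicate 3 lies among the obstructed libraries (2.46 CPM) and the SD bar of sham runs below 0.

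Cd74, the invariant chain, was the most abundant member per length of transcript. It ranged from 1171 to 1969 CPM in UUO libraries (median 1669), against 159, 139 and 191 CPM in sham replicates 1 to 3. Its log2 fold change was 3.31 ± 0.25 (SE; adjusted p = 1.19e-08, edgeR), or 9.91-fold with a 95% interval of 6.82 to 14.4. Even the lowest UUO library, replicate 2, stood far above the highest sham library.

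The I-A chains behaved in the same way. H2-Aa, the alpha chain, ranged from 293 to 480 CPM in UUO (median 388), against 28.4, 25.6 and 43.2 CPM in sham, a log2 fold change of 3.58 ± 0.27 (adjusted p = 8.61e-09, edgeR). H2-Ab1, the beta chain, ranged from 663 to 1020 CPM in UUO (median 776), against 87.8, 80.6 and 119 CPM in sham, a log2 fold change of 3.10 ± 0.24 (adjusted p = 1.51e-08, edgeR). H2-Eb1, the I-E beta chain, ranged from 352 to 546 CPM in UUO (median 441), against 63.3, 54.8 and 81.1 CPM in sham, a log2 fold change of 2.78 ± 0.25 (adjusted p = 5.64e-08, edgeR). Sham replicate 3 was the highest of the sham libraries for each of these chains, and it stayed well under the lowest UUO library. H2-Ea-ps, listed for the alpha chain of I-E but named a pseudogene by its symbol, was too low to be tested. Whether an I-E molecule was made was not tested.

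The peptide-exchange chains were far less abundant per length of transcript but rose as well. H2-DMa ranged from 24.0 to 35.6 CPM in UUO (median 29.9), against 2.58, 2.72 and 5.30 CPM in sham, a log2 fold change of 3.09 ± 0.29 (adjusted p = 9.18e-08, edgeR). H2-DMb1 ranged from 27.4 to 43.0 CPM in UUO (median 35.2), against 3.73, 6.07 and 6.44 CPM in sham, a log2 fold change of 2.71 ± 0.28 (adjusted p = 3.65e-07, edgeR). For both chains the groups were far apart, with the lowest UUO library again replicate 2.

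Ciita, the transcriptional coactivator, ranged from 44.8 to 103.2 CPM in UUO (median 80.1), against 13.04, 12.1 and 16.5 CPM in sham. Its log2 fold change was 2.46 ± 0.28 (5.48-fold, adjusted p = 1.16e-06, edgeR). The UUO libraries were uneven: replicates 5 and 6, the receptor-gene libraries of that group and its RM6 series, were the lowest at 59.5 and 44.8 CPM, whereas the 4 others held 73.7 to 103.2 CPM. The lowest of them still exceeded the highest sham library.

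The costimulatory ligands differed from each other. Cd86 ranged from 10.3 to 14.4 CPM in UUO (median 12.8), against 3.58, 2.88 and 5.30 CPM in sham, a log2 fold change of 1.72 ± 0.22 (adjusted p = 4.08e-06, edgeR), the smallest rise among the called members. Cd80, the rarest member per length, had 1.21 to 3.13 CPM in UUO (median 1.65), against 0.143, 0 and 2.46 CPM in sham, and the groups overlapped. Those sham levels came from 1, 0 and 13 counts, so sham replicate 3, a receptor-gene library, set the sham mean. Without that library the Cd80 log2 fold change was 4.503 (adjusted p = 0.000597, edgeR), and without all 4 receptor-gene libraries 4.61 (adjusted p = 0.000854); over all alternatives the adjusted p ranged from 0.000597 to 0.481. With a single count left in sham, the size of these values depends on the prior count of the fit. The part of the receptor-gene libraries in the result was not tested further.

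The diet with the silicon-based agent did not move any member past the threshold in obstructed kidneys. In UUO_Si against UUO, 0 of the 9 members and 0% of the 16752 genes were called by edgeR's quasi-likelihood test after Benjamini-Hochberg adjustment, while 626 genes (3.74%) had an unadjusted p under 0.05 and DESeq2 called 2 genes, neither of them a member. The median log2 fold change of the members was -0.02. For the 8 members other than Cd80, the 95% intervals of the fold change ran from 0.717 at the lowest (Cd74) to 1.34 at the highest (Cd86). Larger effects than these lie outside the intervals, and smaller ones cannot be seen at this spread.

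**Figure D2:**
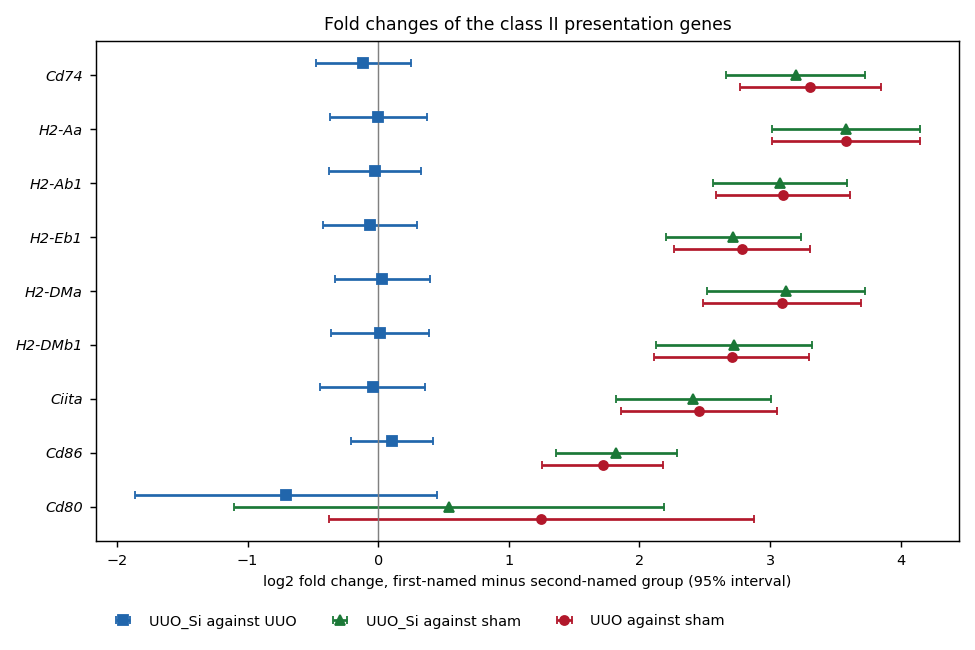
Log2 fold change with 95% interval of the 9 genes in UUO_Si against UUO (squares), UUO_Si against sham (triangles) and UUO against sham (circles), from the fit over all 15 libraries. Both comparisons with sham lie well to the right of 0 for 8 genes, the comparison of the diets lies around 0 for those 8, and Cd80 has the widest intervals.

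Cd74 averaged 1493 CPM (SD 460, n = 6) in UUO_Si and 1615 CPM (SD 264, n = 6) in UUO, a log2 fold change of -0.11 (95% interval -0.48 to 0.25, adjusted p = 0.999, edgeR). Its UUO_Si libraries ranged from 1043 to 2241 CPM, with a median of 1320. H2-Aa averaged 386 ± 113 CPM in UUO_Si and 386 ± 63.3 CPM in UUO, with an interval of the log2 fold change from -0.37 to 0.37. Means of both groups were nearly the same for the alpha chain, and its UUO_Si libraries, from 269 to 553 CPM (median 340), enclosed those of UUO at both ends.

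The beta chains had UUO_Si libraries on either side of UUO as well. H2-Ab1 ranged from 564 to 1178 CPM in UUO_Si, with a median of 740 (log2 fold change against UUO -0.02, interval -0.38 to 0.33). H2-Eb1 ranged from 297 to 617 CPM in UUO_Si, with a median of 396 (log2 fold change -0.07, interval -0.43 to 0.30). Among the peptide-exchange chains, H2-DMa ranged from 21.03 to 43.4 CPM in UUO_Si (median 27.5; log2 fold change 0.03, interval -0.33 to 0.39). H2-DMb1 ranged from 21.3 to 49.9 CPM in UUO_Si (median 32.0; log2 fold change 0.02, interval -0.36 to 0.39). In all 4 genes the lowest and the highest obstructed library both belonged to UUO_Si.

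Ciita averaged 73.8 ± 20.97 CPM in UUO_Si and 75.9 ± 21.1 CPM in UUO (log2 fold change -0.04, interval -0.44 to 0.36). Cd86 averaged 13.8 ± 2.67 CPM in UUO_Si and 12.8 ± 1.48 CPM in UUO (log2 fold change 0.11, interval -0.21 to 0.42). Cd80 averaged 1.20 ± 0.552 CPM in UUO_Si and 1.96 ± 0.749 CPM in UUO, from 6 to 17 counts in UUO_Si and 15 to 37 counts in UUO. Its log2 fold change of -0.71 had an interval from -1.86 to 0.45, which spans values below and above 0. Adjusted p was 0.999 for each of these genes by edgeR.

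Libraries of UUO_Si were more spread out than those of UUO in the chains and the invariant chain. The coefficient of variation of Cd74 was 30.8% in UUO_Si and 16.4% in UUO, that of H2-Ab1 was 28.3% in UUO_Si and 16.6% in UUO, and that of H2-DMa was 28.2% in UUO_Si and 13.5% in UUO. This difference in spread was not tested. The same libraries stood at the ends for 6 genes: UUO_Si replicate 4 was the lowest of its group and replicates 3 and 6 were the highest for Cd74, H2-Aa, H2-Ab1, H2-Eb1, H2-DMa and H2-DMb1, and UUO replicate 2 was the lowest of its own group for the same genes. UUO_Si replicate 6 is a receptor-gene library, and replicate 3 is not. Without the 4 receptor-gene libraries the log2 fold change of H2-Aa in UUO_Si against UUO was -0.12, and no member was called.

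On the agent diet obstruction was again accompanied by a raised class II route. In UUO_Si against sham, 8 of 9 members rose, where 52.7% of all genes were called and 27.2% called higher, and the same 8 did not overlap with sham, as did 24% of all genes in that direction. The median log2 fold change of the members was 2.72. Values ran from 1.82 ± 0.22 for Cd86 (adjusted p = 2.40e-06, edgeR) to 3.58 ± 0.27 for H2-Aa (adjusted p = 1.06e-08), with Cd74 at 3.20 ± 0.25 and Ciita at 2.41 ± 0.28. Cd80 was at 0.54 ± 0.78 and missed the threshold (adjusted p = 0.581), while without sham replicate 3 it was at 3.79 (adjusted p = 0.00327). Leaving out sham replicate 2 in its place gave -0.04, so the direction of Cd80 rested on single sham libraries; over all alternatives the adjusted p ranged from 0.00327 to 0.985. Both comparisons with sham share the same 3 sham libraries and are not independent.

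Per length of transcript, the members differed widely in level. Levels in CPM per kilobase of the principal transcript averaged 1145 in UUO for Cd74, 676 for H2-Ab1, 342 for H2-Aa, 274 for H2-Eb1, 24.9 for H2-DMb1, 17.8 for H2-DMa, 12.6 for Ciita, 5.04 for Cd86 and 0.617 for Cd80. In UUO the library ranges of neighbours in this order met or overlapped for Cd74 and H2-Ab1, H2-Aa and H2-Eb1, H2-DMb1 and H2-DMa, and H2-DMa and Ciita, and stayed apart for the others. UUO_Si had the same order, from 1059 for Cd74 to 0.379 for Cd80, with overlap also between H2-Ab1 and H2-Aa. In sham the order changed in places: Cd74 came first at 116, then H2-Ab1 at 79.1, H2-Eb1 at 39.8, H2-Aa at 28.7, H2-DMb1 at 3.86, Ciita at 2.31, H2-DMa at 2.13, Cd86 at 1.54 and Cd80 at 0.274. Sham ranges overlapped between H2-Eb1 and H2-Aa and between each neighbour pair from H2-DMb1 to Cd86. The places of H2-Aa and H2-Eb1 depend on the length chosen. H2-Aa has 1128 bases in the principal transcript and 3798 over all its exons, and H2-Eb1 has 1669 and 1944. With lengths over all exons, H2-Eb1 came above H2-Aa in UUO too, and the median H2-Ab1 to H2-Aa ratio in UUO was 3.16 instead of 1.99.

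Ratios between members were taken within each library, with a pseudocount of 0.1 CPM per kilobase added on both sides, so that library scaling bears on them little except where levels are low, as for Cd80. For 9 such ratios of levels per kilobase, each compared in 3 pairs of groups, 27 exact two-sided permutation tests were made, and none passed after Benjamini-Hochberg adjustment over them. With 3 sham libraries the smallest p such a test can give is 0.0238, and with 6 against 6 it is 0.00216. Over 27 tests, a comparison with sham could therefore pass only if many tests gave p at or below 0.0238.

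In these libraries the I-A beta chain was less in excess of the alpha chain after obstruction, a difference that did not pass after adjustment. The H2-Ab1 to H2-Aa ratio ran from 1.64 to 2.19 in UUO_Si and from 1.66 to 2.33 in UUO, against 2.87, 2.92 and 2.56 in sham replicates 1 to 3. UUO lay 0.49 lower than sham on the log2 scale, with no overlap (exact permutation p = 0.0238, adjusted p = 0.0643). The H2-Eb1 to H2-Ab1 ratio also lay lower without overlap, at 0.358 to 0.459 in UUO_Si and 0.375 to 0.430 in UUO, against 0.524, 0.495 and 0.495 in sham (exact permutation p = 0.0238 for each, adjusted p = 0.0643).

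Ciita made up less per unit of class II chain in the obstructed libraries, and this difference did not pass after adjustment either. Its ratio to the sum of H2-Aa, H2-Ab1 and H2-Eb1 ran from 0.00679 to 0.0117 in UUO_Si and from 0.00611 to 0.0143 in UUO, against 0.0167, 0.0174 and 0.0153 in sham. UUO was 1.71-fold lower than sham (exact permutation p = 0.0238, adjusted p = 0.0643). The lowest library of UUO_Si and the lowest of UUO were both replicate 6, a receptor-gene library in each group, while sham replicate 3, a receptor-gene library too, was the lowest of sham.

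**Figure D3:**
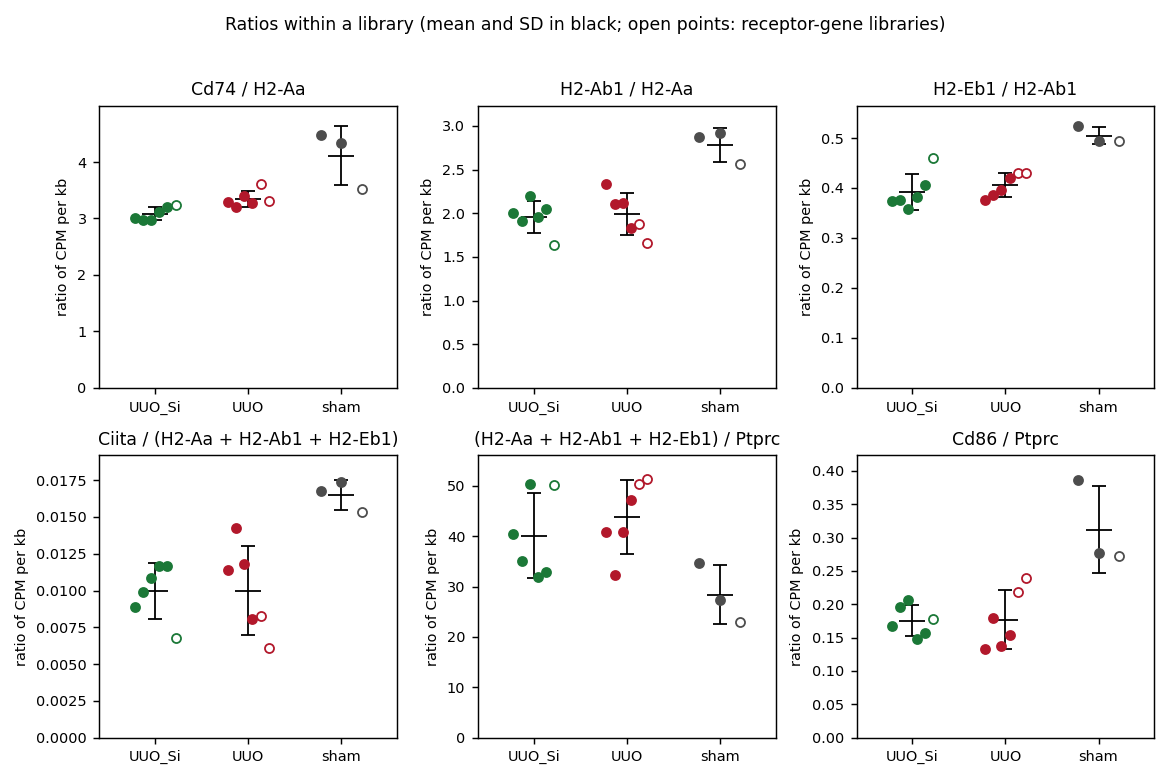
Ratios of levels per kilobase (linear axes from 0) within each library of UUO_Si (n = 6), UUO (n = 6) and sham (n = 3), with mean and SD in black and receptor-gene libraries as open points. Sham lies above all obstructed libraries for H2-Ab1 to H2-Aa, H2-Eb1 to H2-Ab1, Ciita to the chains and Cd86 to Ptprc.

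Cd74 relative to H2-Aa had the smallest p of the 9 ratios between the diets, with a small difference. It ran from 2.97 to 3.24 in UUO_Si and from 3.20 to 3.60 in UUO, against 4.48, 4.34 and 3.52 in sham. UUO_Si lay 0.12 lower than UUO on the log2 scale, a 1.08-fold difference (exact permutation p = 0.00433, adjusted p = 0.0643). The ranges met at their ends, where UUO_Si replicate 6 exceeded UUO replicate 2. Cd80 to Cd86 had geometric means of 0.0835 in UUO_Si and 0.135 in UUO, a larger difference of 1.61-fold with a wider spread (exact permutation p = 0.0411, adjusted p = 0.0989). Other pairs of members, H2-DMb1 to H2-DMa and the H2-DM chains to the classical chains, had adjusted p values of 0.129 or more in each comparison.

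Set against Ptprc, the pan-leukocyte marker CD45, class II chains lay higher and Cd86 lay lower in obstructed kidneys, and neither difference passed after adjustment. Ptprc itself rose in UUO against sham by 2.49 ± 0.21 on the log2 scale, with 112 to 175 CPM in UUO, against 17.9, 20.5 and 37.3 CPM in sham. Summed H2-Aa, H2-Ab1 and H2-Eb1 per Ptprc had geometric means of 39.4 in UUO_Si, 43.3 in UUO and 28.0 in sham (UUO against sham: exact permutation p = 0.0476, adjusted p = 0.0989, with overlap). Cd86 per Ptprc ran from 0.148 to 0.206 in UUO_Si and from 0.133 to 0.240 in UUO, against 0.386, 0.277 and 0.272 in sham, with no overlap (exact permutation p = 0.0238 for each, adjusted p = 0.0643). UUO replicates 5 and 6 held the highest values of UUO in both ratios, along with the lowest Ptprc.

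The rest of the pathway was read from lists of its genes, on which counts and medians are given without a test of the list. Of all genes tested, 27.5% were called higher and 26.4% lower in UUO against sham. List counts without the 4 receptor-gene libraries come from a separate fit, whose share of all genes called is not given here. Further class II genes rose with the members: H2-DMb2, H2-Ob, H2-Oa and H2-Eb2, 4 of 4 tested, were called higher in UUO against sham, with a median log2 fold change of 2.14 (3.15 without the 4 receptor-gene libraries). H2-DMb2, the second DM beta chain, stood at 12.9 to 21.3 CPM in UUO, against 1.15, 1.28 and 2.65 CPM in sham (log2 fold change 3.38 ± 0.45). H2-Ob, a chain of the H2-O dimer that restrains H2-DM, rose by 1.95 ± 0.32 and its partner H2-Oa by 1.64 ± 0.62.

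The DNA-binding partners of Ciita were mixed. Of 7 genes for RFX, NF-Y and Creb1, 3 were higher and 2 lower in UUO against sham, and their median log2 fold change was 0.08. As 27.5% of all genes tested were called higher and 26.4% lower, these counts do not set the list apart. Rfx5, the DNA-binding subunit of RFX, rose by 0.51 ± 0.15, whereas Rfxap fell by 0.37 on that scale (adjusted p = 0.0269, edgeR). Nfyc, an NF-Y subunit, fell furthest, to 54.7 to 63.5 CPM in UUO, against 152, 155 and 130 CPM in sham (log2 fold change -1.26 ± 0.08), with no overlap. Creb1 (0.45) and Nfya (0.42) were the other genes that rose. Rfxank, at -0.31, and Nfyb, at 0.08, were not called. Leaving out the 4 receptor-gene libraries gave 3 genes higher and 3 lower in this list, with Rfxank then called at -0.33 (adjusted p = 0.0492, edgeR).

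Genes listed for the interferon gamma axis, a signal that can switch on Ciita, rose in 9 of 9 tested cases. Their median was 1.73 (2.14 without the 4 receptor-gene libraries). Both receptor chains were among the largest: Ifngr2 had 68.3 to 112 CPM in UUO, against 14.5, 12.8 and 14.4 CPM in sham (log2 fold change 2.63 ± 0.19), and Ifngr1 rose by 2.17 ± 0.10. The list also held Spi1 (2.43) and Irf8 (2.07), transcription factors of myeloid cells, which rose. So did Irf1 (1.25), a transcription factor induced by the signal. Ifng, the cytokine gene, was too low to test, with 0 to 12 counts in UUO_Si, 1 to 9 in UUO and 0 to 7 in sham. Sham libraries were the shallowest, and after scaling Ifng averaged 0.312 ± 0.407 CPM in UUO_Si, 0.356 ± 0.240 CPM in UUO and 0.633 ± 0.665 CPM in sham. The sham levels ran from 0 to 1.33 CPM (median 0.573), with the highest in replicate 3, a receptor-gene library.

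Processing genes were mixed, with 6 of 9 higher and 1 lower and a median of 0.94. Ctss, cathepsin S, which cuts the invariant chain, rose by 4.13 ± 0.27 on the log2 scale, more than any member, with 303.6 to 445 CPM in UUO, against 14.9, 18.9 and 33.2 CPM in sham. Ifi30, a lysosomal thiol reductase, rose by 1.08 and March1, a ubiquitin ligase that takes class II and Cd86 off the surface, by 1.60. Lgmn, an asparaginyl endopeptidase, fell by 0.56 (adjusted p = 0.0360, edgeR). Without the 4 receptor-gene libraries 6 genes were higher and 2 lower, March8 (-0.37, adjusted p = 0.00938, edgeR) beside Lgmn (-0.88), and the median was 0.62.

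Among 12 costimulatory and checkpoint genes, 6 were higher in UUO against sham and none lower, with a median of 1.66. Cd276, the B7-H3 ligand, had the largest change, at 24.0 to 38.6 CPM in UUO, against 0.86, 0.64 and 2.08 CPM in sham (log2 fold change 4.70 ± 0.31). Cd4 (2.83) and Cd40 (2.0) rose as well, while Cd274, the PD-L1 ligand, was at -0.21 and not called. Several genes of this list followed the pattern of Cd80, with sham replicate 3 among the obstructed libraries: Cd28 had 1.78 to 3.80 CPM in UUO, against 0.14, 0 and 3.79 CPM in sham (log2 fold change 1.34, adjusted p = 0.120, edgeR). Without the 4 receptor-gene libraries, 11 of the 12 genes were higher, all but Cd274, and the median was 3.59.

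Most macrophage and dendritic cell markers moved with the members, while B cell and endothelial markers were mixed and proximal tubule markers were lower in 10 of 10 cases in UUO against sham. Summed levels of 14 macrophage markers were 1272 to 1737 CPM in UUO_Si and 1405 to 1657 CPM in UUO, against 322 to 382 CPM in sham, and 13 of the 14 rose in UUO against sham. Among them were Lyz2 (log2 fold change 5.0), C1qa (3.36) and Cd14 (3.20), while Mertk, a receptor for dying cells, was lower (-0.87). Summed levels of 12 dendritic cell markers were 166 to 226 CPM in UUO_Si and 168 to 239 CPM in UUO, against 70.6 to 82.6 CPM in sham. Of these 12 genes, 8 rose in UUO against sham, among them Ccr7 (4.64), Clec10a (3.34) and Itgax (3.11), while Zbtb46, a defining marker that endothelium also makes, was at 0.01 and not called. Without the 4 receptor-gene libraries 10 of the 12 rose.

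Lymphocyte markers were low. B cell markers summed to 23.3 to 25.1 CPM in UUO_Si and 19.4 to 31.3 CPM in UUO, against 12.5 to 40.2 CPM in sham, with the highest sum in sham replicate 3. Of 9 B cell genes, 2 rose in UUO against sham, Cd79b (1.87) and Cd22 (1.45). This is no larger a share than the 27.5% of all genes called higher. Without the 4 receptor-gene libraries 4 of 8 rose. Of 7 T cell genes, 5 rose, among them Cd2 (3.07), Cd3g (2.98) and Cd3e (2.27), and 6 rose without those libraries. Their sums were 31.3 to 52.3 CPM in UUO_Si and 22.8 to 54.1 CPM in UUO, against 6.45 to 23.5 CPM in sham. No defining marker of these cell types was at 0 in every library of a group, though 2 B cell markers were at 0 in at least 1 sham library. Endothelial markers were split, with 3 of 8 higher and 3 lower, and their sums overlapped between groups. What part each cell type had in the rise of the class II genes was not tested.

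Between the diets, none of the genes on these 11 lists was called in UUO_Si against UUO by edgeR's quasi-likelihood test, and list medians ran from -0.13 for dendritic cell markers to 0.22 for proximal tubule markers. Without the 4 receptor-gene libraries these medians were -0.27 and 0.37, and still no list gene was called. Some list medians then changed sign, among them T cell markers (from 0.07 to -0.23) and costimulatory and checkpoint genes (from 0.17 to -0.10). In UUO_Si against sham the lists had counts close to those of UUO against sham, with 8 of 12 costimulatory and checkpoint genes and 5 of 9 processing genes higher. Without the 4 receptor-gene libraries these were 11 of 12 and 5 of 9, with 2 processing genes and 1 dendritic cell marker lower. That marker was Zbtb46, a defining marker of dendritic cells (log2 fold change -0.34, adjusted p = 0.0327, edgeR).

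Across the 12 obstructed libraries, with the mean of each diet taken out, the members fell into a tight group and a loose one. Each gene was correlated with the mean of the standardised levels of Cd74, H2-Aa, H2-Ab1 and H2-Eb1, with a gene left out of its own mean. Pearson's r was 0.953 for Cd74, 0.972 for H2-Aa, 0.901 for H2-Ab1 and 0.991 for H2-Eb1. The H2-DM chains had r of 0.981 for H2-DMa and 0.931 for H2-DMb1. Ciita was looser at 0.340, as were Cd86 at 0.522 and Cd80 at 0.045. Ptprc stood at 0.443, and the median over all tested genes was 0.01, with 0.883% of them at 0.8 or more. These are descriptions of 12 libraries that share depth and scaling, with the 3 receptor-gene libraries among them.

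Among the genes other than the members that were most like the chains, of 12176 with an established symbol and a mean of at least 5 CPM, were Efhd2, Mpeg1, Ctss, Rhog, Psmb8, Tgtp2 and Hcls1. Their r ran from 0.970 for Efhd2, a calcium-binding protein, to 0.928 for Hcls1, a leukocyte signalling adaptor. Ctss stood at 0.959 and Psmb8, an immunoproteasome subunit, at 0.950. Ctss ranged from 268 CPM in UUO_Si replicate 4 to 515 CPM in UUO_Si replicate 3, the libraries at which the class II chains were lowest and among the highest in that group.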

How the data were processed

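Total RNA of whole kidney was kept in RNAlater, purified with an RNeasy kit and sequenced from SMARTer Stranded Pico libraries, per the labels' protocols. The deposited table holds 1 value per gene and library, read here as unnormalised expected counts of the authors, since library totals differ and most values are whole with fractions among the rest. TopHat2 2.1.1, Cuffdiff 2.2.1 and mm10 are listed in the submitters' processing notes; the counting tool, annotation and strand setting are not given in the sources used here.

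Expected counts were rounded, genes passing edgeR's expression filter with a minimum count of 10 were kept (16752 of 24421), and libraries were scaled with TMM. All 15 libraries entered a single quasi-likelihood fit with a mean per group (edgeR 4.0.16, limma 3.58.1, R 4.3.3), and p values were adjusted over all 16752 genes by the Benjamini-Hochberg method and called at 0.05. Standard errors were worked back from the F statistic, with a prior count of 2 for log2 levels. Ratios used levels per kilobase of the principal GENCODE M21 transcript with a pseudocount of 0.1 and were tested in Python 3.11.15 with scipy 1.17.1. The fit and the ratio tests were checked on simulated data.

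Alternatives were RLE, upper-quartile and no scaling, no filter and a minimum count of 50, DESeq2 1.42.0, leaving out genes for ribosomal RNA and haemoglobin, fits of the 2 groups compared, each library left out, the receptor-gene libraries left out, the RM6 and RM7 series left out, a replicate block and other pseudocounts. The list counts without the receptor-gene libraries were added after seeing the data.

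The members and the gene lists were chosen with earlier results of these data known. All 9 members are named, with up to 4 genes of smallest p in UUO against sham per list, list genes that went against their list or are needed for a role, and genes from the 8 most like the class II chains. Some genes that met these rules are not reported here. Lgmn, March8, Mertk, Zbtb46 and Cd28 were named after their values were seen. Of 105 list genes, 103 were in the table; Trac and Trbc2 are not analysed here. No library duplicated another (highest correlation 0.987). Counting error weighs most on Cd80, whose sham libraries held 1, 0 and 13 counts.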

Additional observations from a re-analysis of the deposited data

How the results depend on the processing

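Over 26 alternatives the 8 called members kept their direction and their call in both comparisons with sham, and no member was called in UUO_Si against UUO. Genes called numbered 7719 to 9354 in UUO against sham and 7693 to 9503 in UUO_Si against sham, with 8 or 9 members among them. The 9th was Cd80, called without sham replicate 3 or the 4 receptor-gene libraries; a minimum count of 50 left it untested. For UUO_Si against UUO, DESeq2 called 2 genes where edgeR called 0. Without scaling, the median of all genes moved to 0.19 in UUO against sham (-0.04 with TMM), with 6213 genes higher and 3030 lower against 4609 and 4427. In UUO_Si against sham it moved to 0.18, with 6059 higher and 2966 lower against 4558 and 4276. The cause was not tested for any of the changes below. Replicate numbers showed no steady pairing of samples (correlations of deviations -0.39 to 0.75 between UUO_Si and UUO, -0.29 to 0.19 between UUO and sham). The 0.75 was that of replicate 6, a receptor-gene library in both groups. So few correlations cannot settle whether samples were paired. With the replicate block, 8433, 0 and 8268 genes were called in UUO against sham, UUO_Si against UUO and UUO_Si against sham, and no member's call changed.

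Log2 differences near 0 between UUO_Si and UUO changed sign. H2-Aa was at -0.00069 with RLE, -0.0026 with upper-quartile scaling, -0.015 with no scaling, -0.0057 with no filter, -0.0044 without ribosomal RNA and haemoglobin genes, -0.00076 with DESeq2, -0.12 without the receptor-gene libraries or the RM6 and RM7 series, and -0.035 with the replicate block. H2-DMb1 was at -0.00015 with no scaling, -0.060 without the receptor-gene libraries, -0.059 without RM6 and RM7 and -0.020 with the block. H2-DMa was at -0.10 without either set and -0.0072 with the block. Without either set the H2-DMb1 to H2-DMa ratio was at 0.031 and the Ciita to chains ratio at -0.082.

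With 1 library left out, log2 differences of UUO_Si against UUO ran from -0.13 to 0.086 for H2-Aa, -0.16 to 0.062 for H2-Ab1, -0.19 to 0.024 for H2-Eb1, -0.11 to 0.11 for H2-DMa, -0.11 to 0.13 for H2-DMb1 and -0.21 to 0.074 for Ciita. Ratios ran from -0.070 to 0.030 for H2-Ab1 to H2-Aa, -0.0072 to 0.070 for H2-DM to the chains, -0.062 to 0.11 for Cd86 to Ptprc, -0.10 to 0.14 for Ciita to the chains and -0.050 to 0.020 for H2-DMb1 to H2-DMa. Cd80 against sham ran from 0.66 to 4.503 in UUO and -0.044 to 3.79 in UUO_Si. Cd80 to Cd86 in UUO against sham ran from -0.54 to 0.61, and was at 1.23 with a pseudocount of 0.01, 0.76 without the receptor-gene libraries and 0.028 without RM6 and RM7, against -0.12 as reported. In UUO_Si against sham the pseudocount of 0.01 gave 0.42, against -0.81. Low counts of Cd80 in sham limit every statement on it.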
